A study of Bos indicus with 55 samples.

Results

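The data described here are the counts of 338 cattle-catalogued miRNAs, among 1024 bovine miRNA entries, in extracellular vesicles released by cattle conceptuses. The 338 were taken by name alone, as every entry from miR-2286 to miR-2489 (241 entries) or with a number of 11000 and higher (97 entries). The rule itself uses no measured value, but it was chosen with earlier results of these data known. A conceptus is the embryo with its developing membranes, and extracellular vesicles are small membrane particles that cells shed. Conceptuses were recovered on day 16 and kept in culture for 6 h, and small RNA of the vesicles they shed was sequenced in 28 libraries. Conceptuses conceived in vivo after artificial insemination gave 3 female and 3 male libraries, in vitro fertilisation (IVF) gave 7 female and 3 male libraries, and nuclear transfer gave 5 female and 7 male libraries. In nuclear transfer, the nucleus of another cell takes the place of the egg's own. The number of donor cell lines, the culture of the IVF embryos and any sequencing batch were not given in the sources used here. Each library carries a code of its own in the labels, and is taken here as 1 sample. The labels do not state outright that codes are animals, and p-values measure the spread between these libraries. The labels name the organism as Bos indicus for every library, whereas the text on the study's design assigns the conceptuses to Bos taurus taurus.

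miRNAs are short RNAs that, loaded into Argonaute proteins, pair through a seed near their 5′ end with messenger RNAs and lower the output of those messengers. Numbers in the miRNA catalogue follow the order in which entries were submitted, and the ranges used here were filled largely by small RNA sequencing of cattle tissues. Many such entries rest on few reads, most have no established target, and some short RNAs listed as miRNAs in cattle resemble pieces of ribosomal or other structural RNA. The number alone does not show that an entry is absent from other species: miR-2355, for example, is also catalogued in humans. Conservation could not be checked here, because mature sequences were not used, and no seed is printed for the same reason.

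Library totals ran from 39263 to 603579 counts. In vivo male replicate 3 (400928 counts) and nuclear transfer female replicate 3 (603579 counts) stood apart in depth, and together held 24.95% of all counts in the table. In those libraries miR-2887 and miR-2904, made up 4.11% and 5.17% of counts, the lowest shares of the 28. That share is called the rRNA-like share below, since these entries are known for a resemblance to ribosomal RNA. This is background knowledge, and their sequences were not checked here. It reached 76.3% in IVF female replicate 4. Markers of 7 tissues and cell types were looked up in the vesicles: of the 7 miRNAs listed for early embryo and trophoblast, 6 were in the table and all 6 had counts, and every marker found in the table for red blood cells, leukocytes, liver, muscle, endothelium and epithelium also had counts.

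Most cattle-catalogued miRNAs had few counts or none in conceptus vesicles. Of the 338, 143 (42.3%) had at least 1 count in any library, 195 had 0 counts, and 30 rested on a single read. A count of 0 among the 4025649 counts of the table allows a level of up to 0.0745 per 100000 counts, for counting error only. By comparison, 512 of the other 686 entries (74.6%) had a count. Among the 143, 65 had 2 to 9 counts in total, 48 had at least 10, 19 had at least 100 and 7 had at least 1000. Only 8 were found in every one of the 28 libraries, 23 were found in at least 14, and 50 were found in a single library. The lower and the upper number range were alike in this: 100 of 241 entries (41.5%) and 43 of 97 entries (44.3%) had a count. For the miR-2284 and miR-2285 families, large cattle families that lie just below the lower range, 73 of 146 entries had a count.

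The 338 together took 37616 of 4025649 counts, or 0.934%. A few entries held nearly all of these. miR-11976 alone had 14408 counts, 38.3% of the group, and ranked 32nd among all 1024 entries. miR-11975 followed with 6377 counts and miR-11972 with 4145, so that these 3 held 66.3%. The next in order were miR-12023 with 1848 counts, miR-2440 with 1472, miR-2411-3p with 1372 and miR-11980 with 1168. After them came miR-2484 (932), miR-2332 (852), miR-11985 (811), miR-2463 (657), miR-2311 (586), miR-2404 (491) and miR-12034 (343). miR-2387, miR-11986b, miR-12004, miR-2424 and miR-2411-5p had between 174 and 254 counts each. These 19 were the entries that passed the low-count filter of the 28-library fit, and they held 97.2% of the group's counts. The order is one of read counts, since the files give no lengths. No function is stated for any of the 19 in the labels, and none is asserted here.

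**Figure D1:**
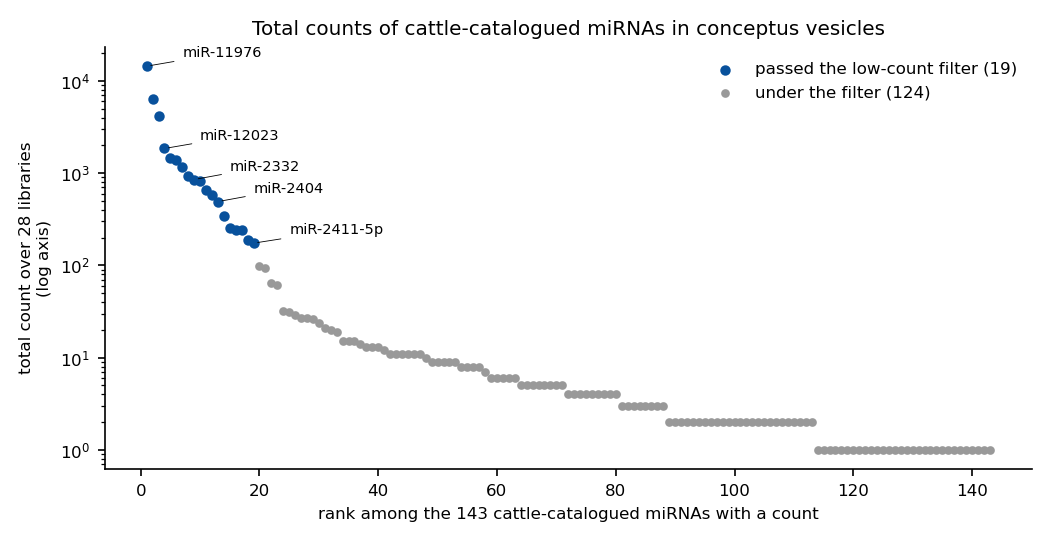
Total count over the 28 libraries (log axis) against rank for the 143 cattle-catalogued miRNAs with a count; each point is 1 miRNA, dark where it passed the low-count filter. The 19 dark points run from 14408 counts for miR-11976 down to 174 for miR-2411-5p, and the grey points below them fall to 1 count.

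Of the 319 entries that did not pass the filter, 124 had a count and together had 1055 counts. The 5 with the most were miR-2427 (98 counts in 22 libraries), miR-2419-5p (94 in 17), miR-2483-5p (65 in 14), miR-11991 (62 in 20) and miR-2336 (32 in 9). The 2 libraries with the highest totals gave 19.6% of the counts of the entries under the filter and 2.65% of the counts of the 19 above it, both below their 24.95% of all counts. Single entries departed from this: miR-2483-5p had 37 of its 65 counts there, miR-2320-3p 16 of 27, and miR-2398 15 of 21. A group of near namesakes had its counts in 1 library: miR-2450a, miR-2450b and miR-2450d each had 9 counts in IVF female replicate 2, of 13, 11 and 9 in all. These 3, like miR-2483-5p, miR-2320-3p and miR-2398 for their place in the deep libraries, were singled out after their values were seen. Counts that matched those of another entry in all 28 libraries were found for 44 cattle-catalogued miRNAs, in 22 sets, and since their largest total was 3 counts no tested entry was among them.

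For 34 of the catalogued hairpins both arms, 5p and 3p, are listed. In 21 of them an arm had a count, and in 11 the arms had at least 10 counts together: the 3p arm was higher in 5 of the 11 and the 5p arm in 6. miR-2411 was the one hairpin with both arms above the filter. Its 3p arm had 1372 of 1546 counts, or 88.7% (95% Clopper-Pearson interval 87.1 to 90.3, which covers counting error only), and exceeded the 5p arm in 28 of 28 libraries. miR-2419 was one-sided the other way, with 94 counts for 5p and 0 for 3p, which leaves a 3p share of up to 3.85% within its exact interval. miR-2483 gave 65 counts for 5p and 8 for 3p.

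Per library, the group's share of counts ranged from 0.105% to 2.44%. In vivo libraries ran from 0.135% to 1.55% with a median of 0.967%, IVF libraries from 0.249% to 1.97% with a median of 1.06%, and nuclear transfer libraries from 0.105% to 2.44% with a median of 1.02%. The 3 types overlapped almost wholly. As a share of the counts other than miR-2887 and miR-2904, the medians were 1.17% in vivo, 2.56% in IVF and 1.78% in nuclear transfer, again with overlapping ranges (0.141% to 2.46%, 0.273% to 6.11% and 0.111% to 5.73%). Within nuclear transfer, females ran from 0.105% to 1.14% (median 0.508%) and males from 0.815% to 2.44% (median 1.38%), an upward shift with some overlap. The lowest shares of all were those of the 2 deepest libraries, and the highest was that of nuclear transfer male replicate 3.

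**Figure D2:**
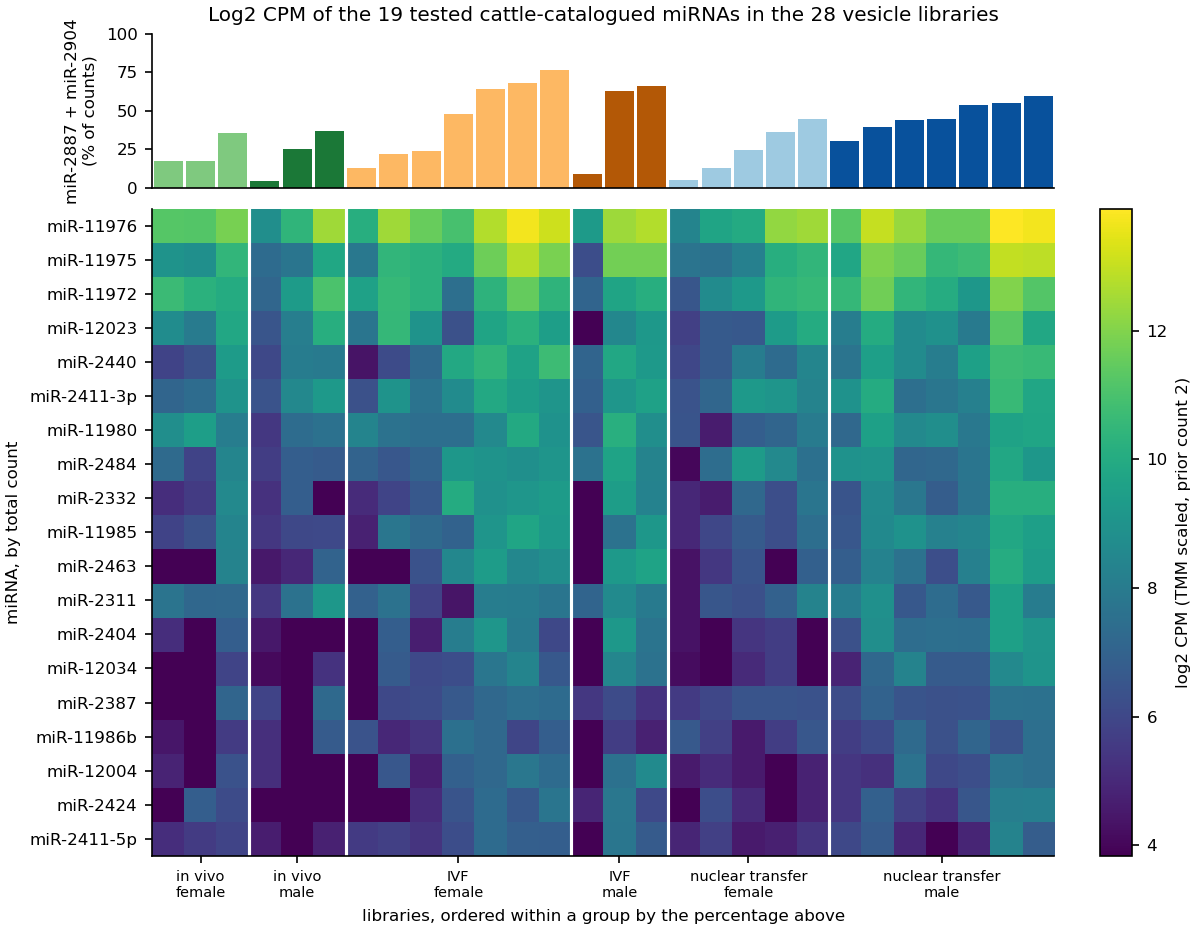
Upper panel: percentage of each library's counts from miR-2887 and miR-2904. Lower panel: log2 CPM (counts per 1000000, TMM scaled, prior count 2) of the 19 tested cattle-catalogued miRNAs (rows) in the 28 libraries (columns, by group and then by the upper percentage). Most rows brighten from left to right within a group as the percentage rises.

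IVF and in vivo vesicles were compared to ask whether fertilisation outside the body was accompanied by other vesicle content. By edgeR's quasi-likelihood test 0 of the 19 tested cattle-catalogued miRNAs passed the adjusted threshold of 0.05, and 0 of all 240 entries tested did (0%). At an unadjusted p under 0.05 stood 9 of the 19, all higher in IVF, where 29 of the 240 (12.1%) were higher and 16.2% were on either side. These 9 were miR-2404, miR-12034, miR-12004, miR-2424, miR-11975, miR-2411-5p, miR-11985, miR-2484 and miR-2332. Since passing the filter can rest on the higher group alone, the 9 of 19 describes only the entries tested. The call depends on the tool: DESeq2 passed 4 of the 19 (miR-2404, miR-12034, miR-12004 and miR-11975), beside 13 of the 240 entries (5.42%). limma voom passed the first 3 of these, beside 22 of the 240 (9.17%). The edgeR test without IVF male replicate 3 passed the same 4 as DESeq2, beside 21 of the 254 entries tested there (8.27%). The 3 comparisons between conceptus types share libraries, so their values are not independent.

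miR-2404 had the smallest p of the 19. Levels are given in CPM, counts per 1000000 scaled by TMM. In the in vivo libraries its level was 102, 21.8 and 0 CPM in females and 0, 0 and 8.28 CPM in males. Across the 10 IVF libraries it ran from 0 to 575 CPM with a median of 148 CPM. IVF libraries were mostly higher, but 2 of 10 had no count, so the groups overlapped. The log2 fold was 3.79 (SE 1.13, edgeR adjusted p = 0.140). Counts behind it were few: 15 in all in vivo libraries, or 2.03 per 100000 counts (95% exact Poisson interval 1.14 to 3.35, counting error only). Without in vivo male replicate 3 the in vivo level was 3.55 per 100000 (1.84 to 6.204), and without in vivo female replicate 1 it was 0.922 (0.338 to 2.01). There were 213 counts in the IVF libraries, or 15.8 per 100000 (13.7 to 18.1). Fitted folds of entries with so few counts depend on the prior count of the fit.

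miR-12034 was similarly sparse in vivo, with 45.3, 0 and 0 CPM in females and 25.8, 0 and 2.76 CPM in males. IVF libraries ran from 0 to 334 CPM with a median of 87.3 CPM, and again 2 of 10 had no count. The log2 fold was 3.61 (SE 1.12, edgeR adjusted p = 0.140). miR-12004 had in vivo levels from 0 to 68.0 CPM and IVF levels from 0 to 389 CPM, with a log2 fold of 2.92 (SE 0.97, edgeR adjusted p = 0.140). Each of these miRNAs was undetected in 3 of 6 in vivo libraries and in 2 of 10 IVF libraries.

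Of the examples the number rule names, miR-2463 and miR-11980 stood outside the 9. miR-2463 was 0 in 2 of 6 in vivo libraries and in 3 of 10 IVF libraries, with medians of 12.6 and 344 CPM and a log2 fold of 2.38 (SE 1.204, edgeR adjusted p = 0.298). miR-11980, found in all 28 libraries, had medians of 221 and 339 CPM and a log2 fold of 0.96 (SE 0.62, edgeR adjusted p = 0.454). The ranges overlapped for both. Among the most abundant entries, miR-11976 had a median of 2372 CPM in vivo and 5536 CPM in IVF (log2 fold 0.93, SE 0.68), whereas miR-11972 had medians of 1121 and 1183 CPM (log2 fold −0.22, SE 0.63).

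Over the 19, the fitted log2 folds ran from −0.22 for miR-11972 to 3.79 for miR-2404, and 16 of 19 were above 0, against 51.7% of all entries tested. Their median was 1.74, beside 0.01 for all 240. An entry can pass the filter through its higher group alone, so this sign count and median are descriptions of the 19 only. Without a filter the median was 0.05 over the 143 entries with a count, beside 0.01 over all 655, and with a filter of 10 CPM in 3 libraries it was 0.76 over 42, beside −0.05. With scaling by library totals alone, the median over all entries moved to −0.35 and that over the 19 to 1.13. The rRNA-like share moved with the same comparison: it ran from 4.11% to 37.1% in vivo (median 21.1%) and from 8.80% to 76.3% in IVF (median 55.3%). The logit of that share, the log of the share over the remainder, was then fitted as a covariate. With it the median over the 19 was −0.18, beside 0.00 over all entries, and the folds of miR-11985 and miR-2332 turned to −0.18 and −0.33. miR-2404 and miR-12034 then had folds of 1.49 and 1.73 (edgeR adjusted p = 0.793 for both). The summed early embryo and trophoblast markers ran from 13.0 to 189 per 100000 counts in vivo and from 2.42 to 1038 in IVF (medians 95.9 and 262). Leukocyte markers had medians of 11.4 in vivo and 69.1 in IVF, red blood cell markers 49.4 and 70.5, and epithelial markers 2910 and 1427. Endothelial markers had medians of 773 and 482, muscle markers 73.8 and 23.5, and liver miR-122 had 200 and 108. The ranges overlapped for every list, and the part of the markers in these folds was not tested.

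**Figure D3:**
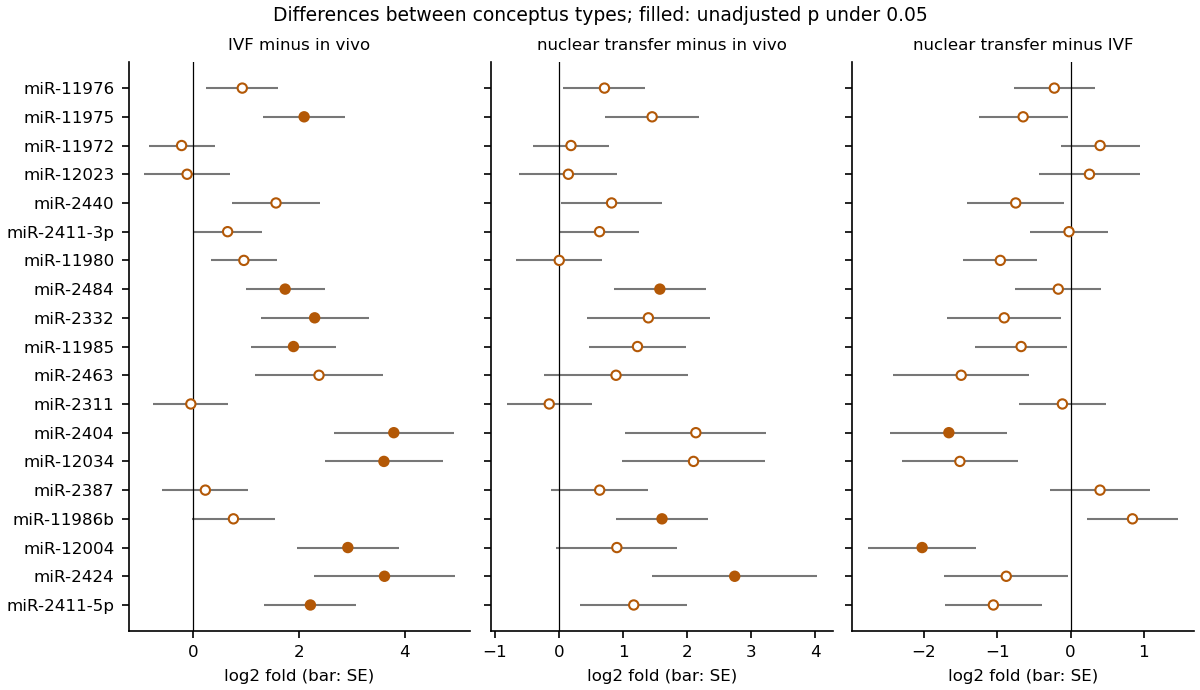
Fitted log2 folds (points) with their standard errors (bars) for the 19 tested cattle-catalogued miRNAs in the 3 comparisons of conceptus types, filled where the unadjusted p was under 0.05. There are 9 filled points for IVF minus in vivo, 3 for nuclear transfer minus in vivo and 2 for nuclear transfer minus IVF, and none passed the adjusted threshold.

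Nuclear transfer and in vivo vesicles were compared in the same way. By edgeR 0 of the 19 passed the threshold, as did 1 of the 240 entries (0.417%), and DESeq2 and limma voom passed 0 of the 19. At an unadjusted p under 0.05 stood miR-11986b, miR-2484 and miR-2424, all higher in nuclear transfer, beside 3.33% of all entries on that side. miR-11986b was at 34.0, 7.26 and 0 CPM in the in vivo females, and ran from 0 to 90.3 CPM with a median of 14.7 CPM over the 6 in vivo libraries. Nuclear transfer libraries ran from 9.11 to 167 CPM with a median of 68.3 CPM, and all 12 had a count. The log2 fold was 1.61 (SE 0.72, edgeR adjusted p = 0.392). miR-2484 had medians of 95.9 and 286 CPM (log2 fold 1.57, SE 0.72), and miR-2424, with 0 counts in 4 of 6 in vivo libraries, had medians of 0 and 33.9 CPM (log2 fold 2.74, SE 1.29). The groups overlapped for all 3. The folds of the 19 ran from −0.15 to 2.74 with a median of 0.90, beside 0.15 over all entries, and 18 of 19 were above 0, against 55.4% of all entries. These too describe only the entries that passed the filter: without one the median was 0.41 over 143, beside 0.36 over all 655. The rRNA-like share had medians of 21.1% in vivo and 41.4% in nuclear transfer, and with it as a covariate the median over the 19 was 0.16, beside 0.19 over all 240.

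The 4 examples of the rule were not alike in this comparison. miR-2404 and miR-12034 had log2 folds of 2.13 (SE 1.10) and 2.10 (SE 1.12), miR-2463 had 0.89 (SE 1.13), and miR-11980 had 0.00 (SE 0.67). None of the 4 passed the threshold, and all had wide errors.

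An entry under the filter had counts in most IVF and nuclear transfer libraries and none in the in vivo libraries. miR-2419-5p had 0 counts among the 738803 counts of the 6 in vivo libraries. It had 46 counts in 7 of 10 IVF libraries, or 3.41 per 100000 (exact Poisson interval 2.50 to 4.55), and 48 counts in 10 of 12 nuclear transfer libraries, or 2.48 per 100000 (1.83 to 3.28). Set against a floor of 3 counts over the whole in vivo group, its pooled level was 8.40-fold that floor in IVF and 6.10-fold in nuclear transfer. These ratios use the pooled levels, not the lower ends of their intervals. They leave out the spread between libraries, so they are not lower bounds. In vivo male replicate 3 held much of that in vivo total: without it 337875 counts remained, and the ratios were 3.84-fold and 2.79-fold. Nuclear transfer female replicate 3, the deepest library, had only 1 count of miR-2419-5p, and IVF males had 2 counts, in 1 of 3 libraries. IVF female replicate 7 had 20 of the 46 IVF counts, and without it the IVF ratio was 5.32-fold. These left-out values were chosen after seeing the data. In the fit of all entries without a filter, edgeR passed miR-2419-5p for nuclear transfer minus in vivo. It was the only cattle-catalogued miRNA to pass there, beside 6 of all 655 entries. It was singled out after this pattern was seen, and IVF and nuclear transfer are set against the same 6 libraries.

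Nuclear transfer and IVF vesicles were compared directly as well. By edgeR 0 of the 19 passed, as did 3 of the 240 entries (1.25%), and DESeq2 and limma voom passed 0 of the 19. At an unadjusted p under 0.05 stood miR-12004 and miR-2404, lower in nuclear transfer, where 7.08% of all entries were lower and 10% were on either side. miR-12004 had a median of 122 CPM in IVF and 26.1 CPM in nuclear transfer (log2 fold −2.02, SE 0.74, edgeR adjusted p = 0.322). miR-2404 had medians of 148 and 113 CPM (log2 fold −1.66, SE 0.80, edgeR adjusted p = 0.428), and miR-12034, the next by p, had a fold of −1.51 (SE 0.79). For each of these the ranges of the 2 types overlapped.

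Averaged over the 3 conceptus types, male and female vesicles were not told apart by any of the 19. By edgeR 0 passed, 0 had an unadjusted p under 0.05, and of all 240 entries 0 passed (0%) and 3.75% had an unadjusted p under 0.05. DESeq2 and limma voom also passed 0 of the 19. The 3 with the smallest p were miR-2311 (log2 fold, male minus female, 0.94, SE 0.54), miR-12034 (1.37, SE 0.85) and miR-12004 (0.96, SE 0.70), with edgeR adjusted p of 0.711, 0.743 and 0.743. The fold of miR-12004 turned to −0.19 without in vivo male replicate 3.

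Within nuclear transfer alone, 8 of the 15 cattle-catalogued miRNAs tested were higher in vesicles of male conceptuses. In this fit of the 12 nuclear transfer libraries, 15 of the 338 passed the filter, and the 8 passed the adjusted threshold of edgeR's test. In the fit of all 28 libraries 2 of 19 passed, beside 20 of the 240 entries, and with the rRNA-like share as a covariate 0 of the 15 did. In the fit of the 12 nuclear transfer libraries without a covariate, 24 of 180 entries (13.3%) passed as higher in males and 40 (22.2%) passed in either direction. The 8 were miR-2404, miR-12034, miR-11985, miR-2463, miR-11975, miR-2440, miR-11980 and miR-2332. All 4 examples of the rule were among them, but the examples were chosen with earlier results known, so this is no independent support. Some of the 8 passed the filter through the males alone. The 8 of 15 therefore describes only the entries tested, and is no measure of the 338.

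miR-2404 was at or near 0 in the female libraries and present in every male library. The 5 female libraries had 0, 37.1, 5.63, 0 and 27.3 CPM, from 0, 3, 3, 0 and 3 counts. The 7 male libraries ran from 65.5 to 745 CPM with a median of 168 CPM. Every male was above every female. Its log2 fold was 4.68 (SE 0.93, edgeR adjusted p = 0.00546). Pooled, females had 9 counts, 0.945 per 100000 (exact Poisson interval 0.432 to 1.79), and males 254, 25.8 per 100000 (22.7 to 29.1). Without female replicate 3, the deepest library, the females had 6 counts, 1.72 per 100000 (0.631 to 3.74). A full separation of males above females was found for 1 of the 15, miR-2404, and for 2.78% of all 180 entries. miR-12004, which missed the filter of this fit and is not among the 180, also separated, with females from 0 to 19.7 CPM and males from 23.1 to 197 CPM. That separation rests on very few reads. The highest female value came from 2 counts in female replicate 4, and the lowest male value from 3 counts in male replicate 2.

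miR-12034 rose in males in the same way. Females had 0, 37.1, 3.75, 0 and 18.2 CPM, and males ran from 14.6 to 512 CPM with a median of 131 CPM. All males but 1 were above every female. Its log2 fold was 4.38 (SE 1.00, edgeR adjusted p = 0.0128). miR-2463 had 108, 0, 5.63, 29.6 and 72.9 CPM in females and from 61.2 to 1054 CPM (median 285 CPM) in males, with a log2 fold of 3.33 (SE 0.93, edgeR adjusted p = 0.0223). Here 5 of 7 males were above every female. miR-11980 had 243, 124, 73.1, 9.86 and 100 CPM in females and from 138 to 856 CPM (median 434 CPM) in males, with a log2 fold of 2.30 (SE 0.72, edgeR adjusted p = 0.0318). Again 5 of 7 males stood above every female.

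The other 4 that passed were miR-11975, miR-11985, miR-2440 and miR-2332. miR-11975 had 177 to 1404 CPM in females (median 283 CPM) and 874 to 7912 CPM in males (median 3036 CPM), with a log2 fold of 2.57 (SE 0.76, edgeR adjusted p = 0.0266). miR-11985 rose by 2.72 (SE 0.71, edgeR adjusted p = 0.0189), from a female median of 61.8 CPM to a male median of 377 CPM. For both, 6 of 7 males were above every female. miR-2440 had medians of 148 and 715 CPM (log2 fold 2.31, SE 0.70, edgeR adjusted p = 0.0273), and miR-2332 had medians of 61.8 and 211 CPM (log2 fold 2.54, SE 0.89, edgeR adjusted p = 0.0491). Female and male ranges overlapped for these 4.

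**Figure D4:**
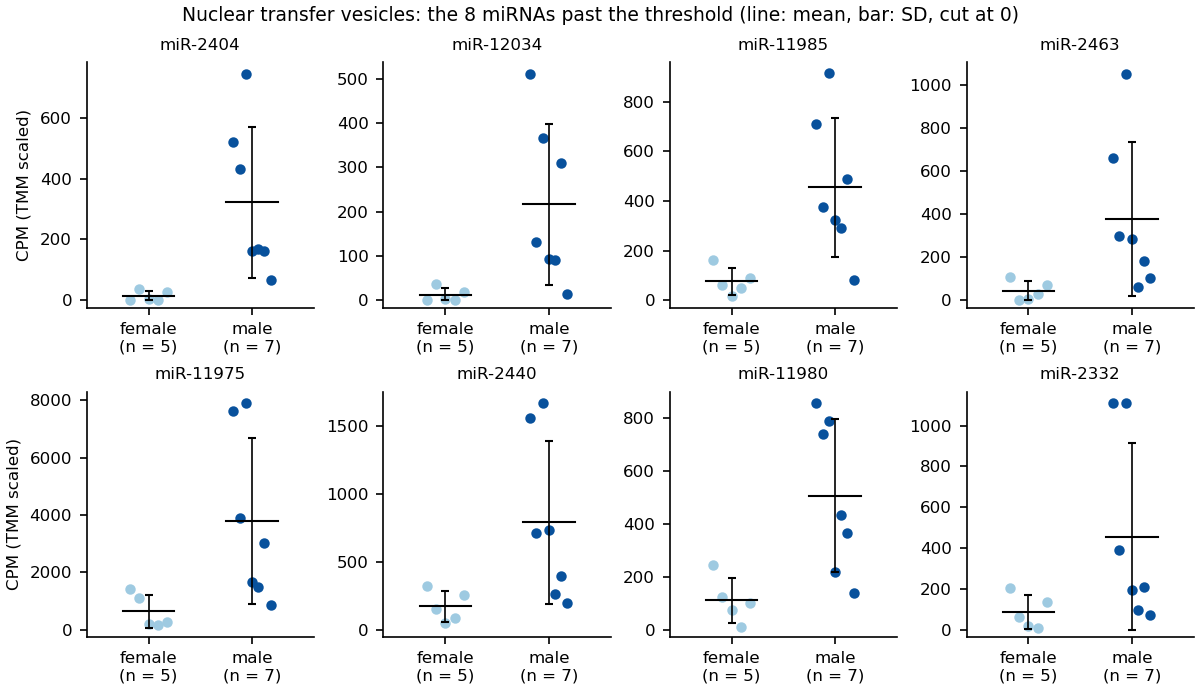
CPM (TMM scaled, linear axes from 0) of the 8 cattle-catalogued miRNAs that passed the threshold between male and female nuclear transfer vesicles; points are libraries, the line is the mean and the bar the SD, cut at 0. All 7 males lie above all 5 females for miR-2404, and the groups overlap for the other 7 miRNAs.

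The 7 that were tested and did not pass were miR-11976, miR-11972, miR-2387, miR-2311, miR-2411-3p, miR-12023 and miR-2484. Their log2 folds ran from 0.80 for miR-2484 to 1.49 for miR-11976, with edgeR adjusted p from 0.144 to 0.508. The median fold over the 15 was 2.30, beside 0.05 over the 180, and library totals alone as the scale gave 1.85 and −0.18. These medians describe only entries that passed the filter, some of which passed through the males alone: miR-2404 and miR-12034 had at most 3 counts in any female library. Without a filter the median was 1.18 over 108 cattle-catalogued miRNAs, beside 0.29 over 580 entries.

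Other measures differed between the same male and female libraries. The rRNA-like share was 5.17% to 44.5% in females (median 24.4%) and 30.3% to 59.4% in males (median 44.6%). With the logit of that share as a covariate, edgeR passed 0 of the 15 and 1 of the 180. The log2 fold of miR-2404 was then 3.21 and that of miR-12034 was 2.36 (edgeR adjusted p = 0.188 and 0.377), and the median over the 15 was 0.70. Summed markers of early embryo and trophoblast ran from 12.4 to 127 per 100000 counts in females (median 20.8) and from 45.1 to 544 in males (median 168). Epithelial markers ran from 1909 to 9112 in females (median 3305) and from 419 to 3419 in males (median 1602), and red blood cell markers had medians of 30.1 and 124. Leukocyte markers had medians of 89.2 in females and 67.5 in males, endothelial markers 382 and 323, and muscle markers 79.6 and 22.7. Liver miR-122 had 204 and 201. The marker lists thus did not move in 1 direction, and their part in the result was not tested. A count is a share of a library, so fewer vesicles with a miRNA and fewer copies per vesicle cannot be told apart.

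Single libraries also bore on the count of 8. Without nuclear transfer female replicate 3, the deepest library, 3 passed (miR-2404, miR-12034 and miR-11985), beside 16 of 190 entries, and without female replicate 4 the same 3 passed, beside 21 of 191. Without female replicate 5, male replicate 1 or male replicate 3, 4 passed, beside 35, 20 and 16 of all entries. Without female replicate 2, male replicate 2 or male replicate 6, 5 passed, beside 50, 39 and 24. miR-2404, miR-12034 and miR-11985 passed with any 1 of the 12 libraries left out.

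Whether the sexes differed by another amount in the other conceptus types was tested with the interaction of type and sex. By edgeR 0 of the 19 and 0 of the 240 entries passed (0%), and DESeq2 and limma voom passed 0 of the 19. At an unadjusted p under 0.05 stood 7 of the 19, beside 14.6% of all entries, with the smallest p for miR-2404, miR-11980 and miR-2424 (edgeR adjusted p = 0.315 for each). In vivo, males had the lower median of miR-2404, 0 against 21.8 CPM, and in IVF they had the higher one, 195 against 102 CPM. miR-11980 in vivo had 261, 428 and 700 CPM in females and 181, 152 and 30.4 CPM in males, so there the females were above the males. The male excess seen in nuclear transfer was thus not shown to be particular to it.

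Across the 28 libraries, each of the 19 tended to be higher where the rRNA-like share was higher. For this comparison levels were taken as CPM of the counts other than miR-2887 and miR-2904, on a log2 scale, with 0.5 added to each count. Pearson's r ran from 0.50 for miR-2311 to 0.89 for miR-2440, with a median of 0.77, and Spearman's rho from 0.49 for miR-11972 to 0.93 for miR-2440. All 19 had permutation p-values under 0.05 after Benjamini-Hochberg adjustment over the 19: the highest was 0.00479 for r and 0.00915 for rho, and the lowest for r, 2.11e-05, came from 1e-05, the smallest that 100000 resamples give. The permutations ran over all 28 libraries without regard to group, so these p-values do not measure a relation within types or sexes. The other 219 tested entries had a median r of 0.16, from −0.87 to 0.92, and 54 of them exceeded 0.5. Adding 0.5 raises the floor in libraries with a high share, since fewer counts remain there. Without it rho ran from 0.49 to 0.93 over the 19, with a median of 0.74, beside 0.13 for the others.

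Without IVF female replicate 4 and in vivo male replicate 3, which lay farthest from the median share, r ran from 0.45 to 0.89. Within types, r ran from 0.27 (miR-12004) to 0.96 (miR-12034) over 6 in vivo libraries, from 0.39 (miR-2311) to 0.92 (miR-2332) over 10 IVF libraries and from 0.41 (miR-2411-5p) to 0.94 (miR-2440) over 12 nuclear transfer libraries. Unadjusted permutation p-values for these r ran from 0.00139 to 0.617 in vivo. They ran from 0.0002 to 0.283 in IVF and from 1e-05 to 0.186 in nuclear transfer. The rank correlation was weaker for some in vivo, down to a rho of −0.14 for miR-12004. The nuclear transfer range mixes sexes that differ in both measures. Over the 7 males alone r ran from −0.04 for miR-2311, −0.03 for miR-11972 and 0.09 for miR-2484 up to 0.85 for miR-2440. Over the 5 females alone r ran from 0.37 for miR-11986b to 0.98 for miR-11976. There miR-2311, miR-11972 and miR-2484 had 0.90, 0.94 and 0.69. Both ranges are descriptions with no test. No linear or rank relation of the share to the log10 of the library total was detected, with r = 0.02 (permutation p = 0.903) and rho = 0.18 (permutation p = 0.366). Yet in vivo male replicate 3 and nuclear transfer female replicate 3 had the highest totals and the lowest shares (4.11% and 5.17%). Both measures can miss a relation that changes direction, so depth is not set aside by them.

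**Figure D5:**
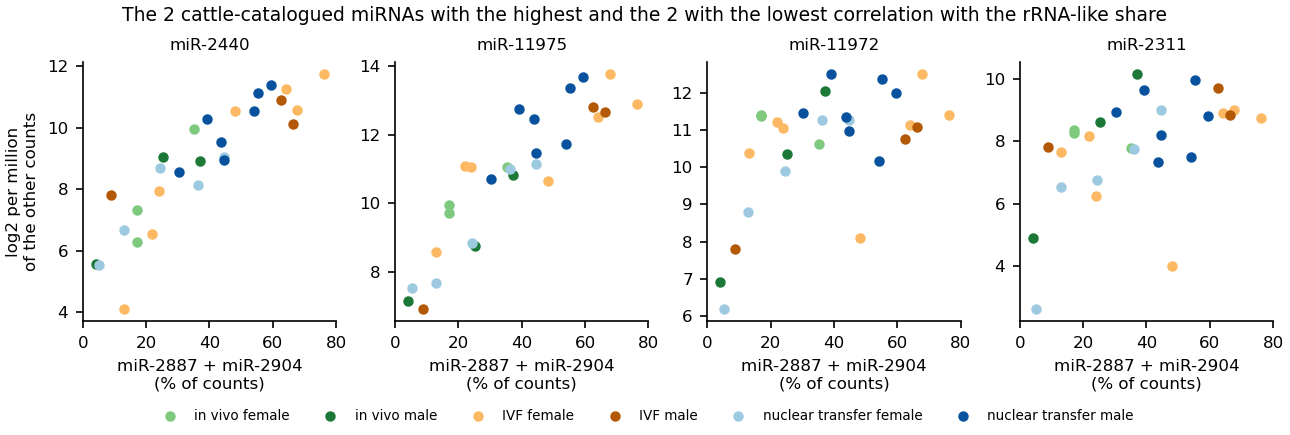
Level of 4 cattle-catalogued miRNAs (log2 CPM of the counts other than miR-2887 and miR-2904, with 0.5 added) against the percentage of counts from those entries; each point is 1 library, coloured by group. miR-2440 and miR-11975 (r = 0.89 for both) rise over the whole range, whereas miR-11972 (r = 0.57) and miR-2311 (r = 0.50) scatter more.

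The tested cattle-catalogued miRNAs also resembled one another across libraries. The median Pearson r of log2 CPM over their 171 pairs was 0.65, beside 0.003 over the pairs of all 240 entries. This is a description of points that share libraries and depth. The entries most like miR-2404 were miR-12034 (r = 0.91), miR-2889 (0.85) and miR-12004 (0.83). Those most like miR-12034 were miR-2404 (0.91), miR-11975 (0.90) and miR-2892 (0.87). miR-2463 was most like miR-2440 (0.92), miR-7 (0.90) and miR-2904 (0.90), and miR-11980 was most like miR-11976 (0.77), miR-11975 (0.77) and miR-2890 (0.76). Of these 12 nearest entries, 7 were cattle-catalogued miRNAs of the same number ranges, which made up 19 of the 240 entries tested. miR-2889, miR-2890, miR-2892 and miR-2904 are listed here as overlapping other small RNAs, from background knowledge. Such entries were also nearest to the most counted ones: miR-2890 to miR-11976 (0.95) and miR-11972 (0.95), and miR-2889 to miR-11975 (0.96). The likeness is thus not particular to the cattle-catalogued miRNAs.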

How the data were processed

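The authors deposited whole counts of reads per bovine miRNA entry, not normalized, for 28 vesicle libraries, 1 column per library, and 0 columns lacked a sample. Per the labels' protocols, libraries were made with the NUGEN Ovation SoLo system and selected for inserts of 18 to 40 bp. The submitters' processing notes name cutadapt, Bowtie, STAR, featureCounts and DESeq2, and ARS-UCD1.2 as the genome. Tool roles and versions, the miRNA annotation and how reads matching several entries were counted are not given in the labels or notes. Endometrial libraries of the same study were not used here. Totals of 39263 to 603579 counts set the precision, and intervals at the 95% level cover counting error only.

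The main test used edgeR 4.0.16 under R 4.3.3: filterByExpr (minimum count 10, minimum total 15), TMM scaling, the quasi-likelihood F test on 6 group means, two-sided, Benjamini-Hochberg adjustment over all entries tested and a threshold of 0.05. Type contrasts average the differences in females and in males, and the sex contrast averages the types. Nuclear transfer libraries were also fitted alone. Standard errors came from the fold and its F statistic, and log2 CPM used a prior count of 2. Correlations used 100000 permutations in SciPy 1.17.1. The tests were checked on simulated counts with large planted folds, up and down, a single spread for all entries and no link between entries. That setting is simpler than these data, so it does not show how well the tests perform on them.

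Alternatives were DESeq2 1.42.0, limma 3.58.1 voom with quality weights, median-ratio size factors, library totals, no filter, a filter of 10 CPM in 3 libraries, leaving out miR-2887 and miR-2904, their share or the log10 total as a covariate, a replicate block, type alone, and each library left out. Wherever the rRNA-like share is called a covariate, its logit was fitted, whereas the correlations used the percentage itself. The miRNAs and lists were chosen with earlier results of these data known. Named were the examples of the number rule, entries past the threshold or the filter, the 3 smallest p per contrast, the 5 most counted under the filter and the 3 nearest to each example; others are said to be chosen after their values were seen. Mature sequences were not used here, so the planned description of their features was not made.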

Additional observations from a re-analysis of the deposited data

Results flagged for a closer look

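In 60 checks of the tested miRNAs within groups of 4 to 10 libraries, 1 library lay apart from the rest of its group by Dixon's criterion, which chance meets in about 1 of 20 groups. miR-2387 had a log2 CPM of 3.84 in IVF female replicate 2, where the next lowest of the 7 IVF female libraries had 6.03 and the highest 7.51. That value stands for a count of 0 in a library of 100508 counts.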

How the results depend on the processing

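Between male and female nuclear transfer vesicles, 8 of 15 cattle-catalogued miRNAs passed, beside 40 of all 180 entries. The count was 8 with DESeq2 (52 of all entries), 8 with limma voom (47), 7 with median-ratio size factors (39), 6 with library totals (29) and 12 with the log10 total as a covariate (53). Without miR-2887 and miR-2904 it was 8, beside 40 of 176. With a filter of 10 CPM it was 9 of 30, beside 45 of 340. Without a filter it was 14 of 108 (13 of them higher in males), beside 63 of 580. It was 2 of 19 in the 28-library fit, beside 20 of 240, and 0 with the rRNA-like share as a covariate, beside 1 of 180. With 1 library left out it ran from 3 to 8, beside 16 to 50 of all entries. Without the 2 libraries with the highest totals, an alternative chosen after seeing the data, it was 3, beside 16 of 190. The causes of these changes were not tested. For IVF minus in vivo the count of 0 became 4 with DESeq2 (13 of all 240 entries), 3 with limma voom (22) and 2 of 143 without a filter (6 of 655). With 1 library left out it ran from 0 to 4, the 4 being beside 21 of 254. For nuclear transfer minus in vivo it became 1 of 143 without a filter, beside 6 of 655. In the other contrasts it was 0 under every alternative that was run. With the rRNA-like share as a covariate the IVF minus in vivo folds of miR-11985 and miR-2332 reversed to −0.18 and −0.33. The fold of miR-12004 between the sexes reversed to −0.14 without the 2 libraries with the highest totals, and ran from −0.19 to 1.65 with 1 library left out. With a replicate block 9 passed between the nuclear transfer sexes, beside 41 of 180, and 0 in the other contrasts. Libraries with the same number carry different codes, and the deviations of 53 such pairs had a median correlation of 0.007, beside 0.002 for other pairs. Of the 53, 20 exceeded 0.1, and 4 of 28 libraries were most like one with their own number. The medians show no general pairing by number, and a pairing of some libraries was not tested. Depth limits the group: 95 of the 143 entries with a count had fewer than 10 counts, and whether they differ was not detectable.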
